A study of Mus musculus with 48 samples.

Results

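Nuclear genes for the subunits of the oxidative phosphorylation complexes were followed in mouse liver after activation of mutant β-catenin, MYC or both in hepatocytes. Members were the genes whose GENCODE mouse symbol began with Ndufa, Ndufb, Ndufc, Ndufs or Ndufv and a digit, with Uqcr, with Cox and a digit from 4 to 8, or with Atp5, together with *Sdha*, *Sdhb*, *Sdhc* and *Sdhd*. This rule, which used no measured value, found 87 of the 20622 genes with RNA values, and 84 of these 87 had a transcript among the 16269 counted for ribosome footprints. By symbol, 37 belonged to complex I, 4 to complex II, 8 to complex III, 18 to complex IV and 18 to complex V, and the pair *Ndufa4* and *Ndufa4l2*, now assigned to complex IV, was kept apart. The members without a footprint transcript were *Ndufb11b*, *Cox7b2* and *Cox8c*.

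The mice were males of 2 to 4 months weighing at least 20 g. All of them, the controls included, had received 2e+11 genome copies (a dose labelled per mouse in one field and per ml in another) of an adeno-associated virus of serotype 8 that expressed Cre recombinase from the TBG promoter, which restricts Cre to hepatocytes. The 4 genotypes were Wild-type (WT), Ctnnb1ex3/+ (B), in which Cre removes the exon holding the degradation signal of β-catenin, R26-LSL-MYC (M), in which Cre turns on a MYC transgene at the Rosa26 locus, and the compound genotype with both alleles (BM). Livers were taken 4 or 10 days after the virus, with 3 mice in each of 8 groups. Each of the 24 mice was a separate biological replicate and gave a library of ribosome-protected fragments (RPFs) and a paired library of cytoplasmic RNA. Mice of the 2 days were induced at different times and harvested together. Whole liver was sampled, so that cells that do not express Cre contributed to every library, and in such bulk tissue fewer cells of a type and less RNA per cell cannot be told apart.

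Oxidative phosphorylation is the last stage of mitochondrial respiration. Complexes I and II pass electrons from NADH and succinate to coenzyme Q, complex III passes them on to cytochrome c and complex IV to oxygen. Complexes I, III and IV pump protons out of the mitochondrial matrix, and the return of protons through complex V, the ATP synthase, drives the synthesis of ATP. Most subunits are encoded in the nucleus, translated in the cytoplasm and imported, and a smaller set, not measured here, is encoded by mitochondrial DNA. Liver is rich in mitochondria, and periportal (zone 1) hepatocytes are known for a higher oxidative capacity than perivenous (zone 3) hepatocytes. Several complex IV subunits have paralogues, among them forms typical of heart and skeletal muscle or of testis.

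The sequences just before the start sites are shown first for *Atp5if1*, which had the largest rise in M and BM livers among members that reached 10 counts in all libraries, and for *Cox6b2*, a member almost absent from WT liver that had most of its counts in livers with mutant β-catenin. They are 160 bases read 5′ to 3′ from the RefSeq promoter table, which is on GRCm38.p6, and capitals mark CACGTG, the E-box read alike on both strands that MYC with its partner MAX is known to bind. In *Atp5if1* the E-box starts at position −155 from the annotated start site. None of the motifs searched was in the 160 bases of *Cox6b2*.
Atp5if1, chr4:132535415-132535574, minus strand: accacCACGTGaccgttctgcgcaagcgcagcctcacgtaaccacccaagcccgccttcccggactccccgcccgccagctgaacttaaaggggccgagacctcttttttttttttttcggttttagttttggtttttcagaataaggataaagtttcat
Cox6b2, chr7:4753095-4753254, minus strand: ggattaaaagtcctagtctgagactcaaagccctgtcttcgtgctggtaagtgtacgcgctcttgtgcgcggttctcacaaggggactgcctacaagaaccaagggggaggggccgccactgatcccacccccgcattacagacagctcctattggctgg

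A promoter window of 300 bases, from 250 before to 50 after the start site, was held for 69 of the 87 members, and both strands were searched. CACGTG was present in 7 of these 69 members (10.14%) and in 8.09% of all 27025 genes with a promoter. The other members that held it are shown as windows of 30 bases.
Atp5mc1, chr11:96075658-96075687, minus strand: agggactccgaaCACGTGggtgggggagct
Atp5mc3, chr2:73911547-73911576, minus strand: acccctgcctggCACGTGcaaggagcgagg
Atp5mg, chr9:44920872-44920901, minus strand: ctcaggattcttCACGTGttatcgcgcctc
Atp5pb, chr3:105959484-105959513, minus strand: aCACGTGgtgtacctctgcgcaaccgcccc
Ndufa7, chr17:33824488-33824517, plus strand: gcggagaggagtCACGTGagcaggggatgc
Ndufv1, chr19:4012907-4012936, minus strand: agcagagggcgaCACGTGagcctggtttac

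Factors known for the nuclear control of respiratory genes include NRF1, the ETS factor GABP, YY1 and the oestrogen-related receptors. GCATGCGC, a core of the NRF1 site, was in 14.49% of members and 3.05% of all genes, CCGGAAG, the ETS core, in 23.19% and 9.93%, AAGATGGC, the YY1 core, in 14.49% and 3.19%, and TCAAGGTCA, bound by the receptors, in 2.9% and 0.47%. Examples of the NRF1 core, in capitals on either strand, are given for members named in the results.
Sdhb, chr4:140961206-140961235, plus strand: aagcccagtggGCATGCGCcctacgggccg
Atp5mc2, chr15:102671071-102671100, minus strand: tggctccggccGCGCATGCgcagagccttc
Atp5me, chr5:108434431-108434460, minus strand: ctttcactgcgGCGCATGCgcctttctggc
Cox6a1, chr5:115349102-115349131, minus strand: acaggaacgggGCGCATGCgcgctctcgct
These are matches of letters in a window and not measured binding sites.

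Total counts ranged from 9742197 to 14380713 in RPF libraries (median 12503695) and from 3254141 to 6540116 in RNA libraries (median 5077216.5), and 78 members reached 10 counts in each of the 48 libraries. Levels are given in CPM, counts per 1000000 counts of a library, after trimmed-mean (TMM) scaling within a library type, and a change is a fitted log2 difference between groups. With this scaling the median RPF change of all genes against WT lay between −0.01 and 0.03, whereas with scaling by library totals alone it lay between 0.10 and 0.42 for RPFs and between 0.18 and 0.54 for RNA, so both scalings are given where the direction depends on it. The summed RPF level of 5 hepatocyte markers was 68085 to 87374 CPM in WT mice, 35916 to 39475 in B at day 10, 33494 to 39904 in BM at day 4 and 31414 to 44505 in BM at day 10, and in M it was 46797 to 59672 at day 4 and 41717 to 43736 at day 10. The group mean of *Alb* was 53556 CPM in WT and 17456 in BM at day 10, whereas those of *Cps1* (7345 and 16166) and *Hnf4a* (193 and 219) were higher in BM. That of 5 proliferation markers was 10.7 to 35.6 CPM in WT mice, 122 to 153 in M and 415 to 694 in BM at day 4, and 118 to 293 in B, 56.3 to 229.8 in M and 40.0 to 81.1 in BM at day 10. The part of these cell changes in the results for the members was not tested. Mouse 1 of BM at day 10 stood apart from the other mice of its group: its log2 levels differed from their mean by a root mean square of 0.69 in RPFs, against 0.20 to 0.46 for all other mice. Its 5 zone 1 markers summed to 691 RPF CPM, against 4109 and 4806 in mice 2 and 3, and its RPF level of *Axin2*, a target of β-catenin, was 26.7 against 10.5 and 6.20. In the group mean of BM at day 10 the largest part of the zone 1 sum was *Pck1* (2706 CPM, WT 1196). *Hal* (181, WT 786), *Gls2* (90.6, WT 377) and *Cyp2f2* (22.9, WT 2359) were below WT, and *Sds* (202, WT 187) was not. Counts of members and of list genes called in BM at day 10 on the TMM scale are therefore given with and without mouse 1.

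In WT liver at day 4, the RPF level per 100 counted codons differed widely within and between complexes. The median was 90.4 CPM per 100 codons for complex I, 141 for complex II, 235 for complex III, 308 for the 12 complex IV members with a usable level and 211 for complex V. The highest levels were those of *Ndufa4* (814) and of *Atp5f1e* (669), the ε subunit of the ATP synthase. *Cox6b1* (447), *Uqcr11* (349.9), *Ndufb1* (335) and *Sdhb* (151) had the highest level in complexes IV, III, I and II. At the low end stood *Atp5if1* (30.03), the inhibitor of ATP hydrolysis by complex V, and *Cox7a1* (3.09), the heart and muscle form of subunit VIIa. Levels of small subunits rest on few counted codons, since the first 20 and last 10 codons of each coding sequence had been left out. In RNA, where the authors give length-scaled shares of transcripts (TPM), *Ndufa4* was again the highest member at 775 ± 49.4 TPM (SD, n = 3), and *Atp5if1* was at 33.6 ± 5.63 TPM.

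**Figure D1:**
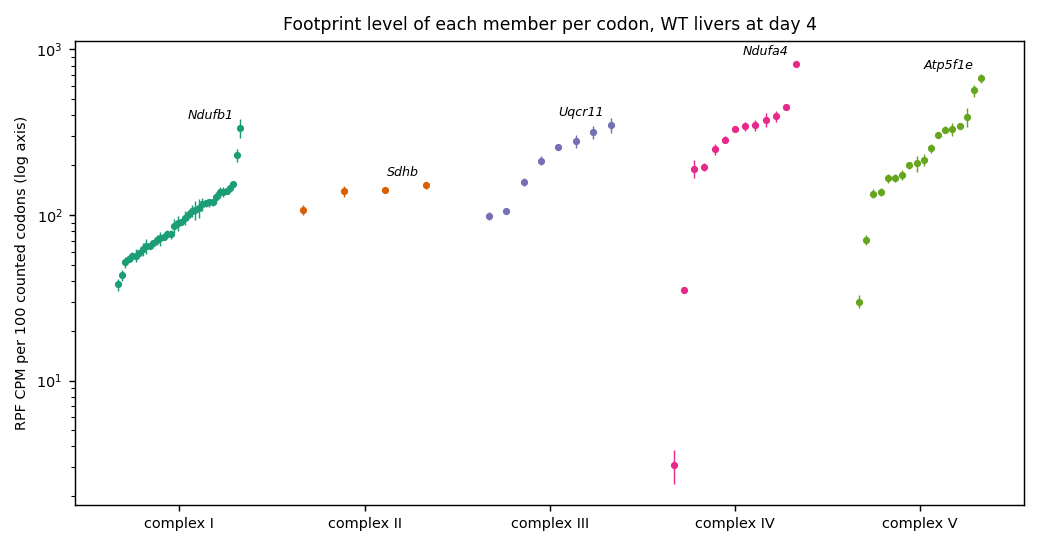
RPF level per 100 counted codons (CPM, log axis) of each member in WT liver at day 4, by complex; points are means of 3 mice and bars are SDs. *Ndufa4* is highest at 814 and *Cox7a1* lowest at 3.09, and complex I members lie lower (median 90.4) than complex IV members (median 308).

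The share of all RPFs taken by the members was higher in M and BM than in WT. At day 4 the share was 1.48%, 1.52% and 1.41% in the WT mice, 1.55%, 1.48% and 1.55% in B, 1.98%, 1.98% and 1.88% in M and 1.84%, 1.71% and 1.79% in BM. At day 10 it was 1.59%, 1.50% and 1.50% in WT, 1.57%, 1.40% and 1.38% in B, 1.98%, 1.93% and 1.89% in M and 1.89%, 2.57% and 2.48% in BM. The M and BM mice did not overlap the WT mice of the same day in RPFs, whereas B mice did. On library totals the typical gene gained too. At day 4 the median RPF change was 0.33 for members and 0.23 for all genes in M, but 0.21 and 0.42 in BM. At day 10 it was 0.29 and 0.245 in M and 0.58 and 0.41 in BM. In RNA the mean share at day 4 was 0.797% ± 0.0333 (SD, n = 3) for WT, 0.902% ± 0.0183 for B, 1.17% ± 0.0481 for M and 1.05% ± 0.0213 for BM, and at day 10 it was 0.927% ± 0.0567 (WT), 0.959% ± 0.143 (B), 1.13% ± 0.0304 (M) and 1.38% ± 0.0832 (BM). In RNA at day 4 the B mice, at 0.882%, 0.905% and 0.918%, also lay above all WT mice. On the TMM scale, which sets the median gene near 0, the order was different. The median RPF level of the 78 members relative to WT of the same day was 0.12, 0.08 and 0.04 (log2) in M at day 4 but −0.22, −0.28 and −0.27 in BM at day 4. In B at day 10 it was −0.16, −0.36 and −0.45, and in BM at day 10 it was −0.16 in mouse 1 and 0.37 and 0.42 in mice 2 and 3.

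**Figure D2:**
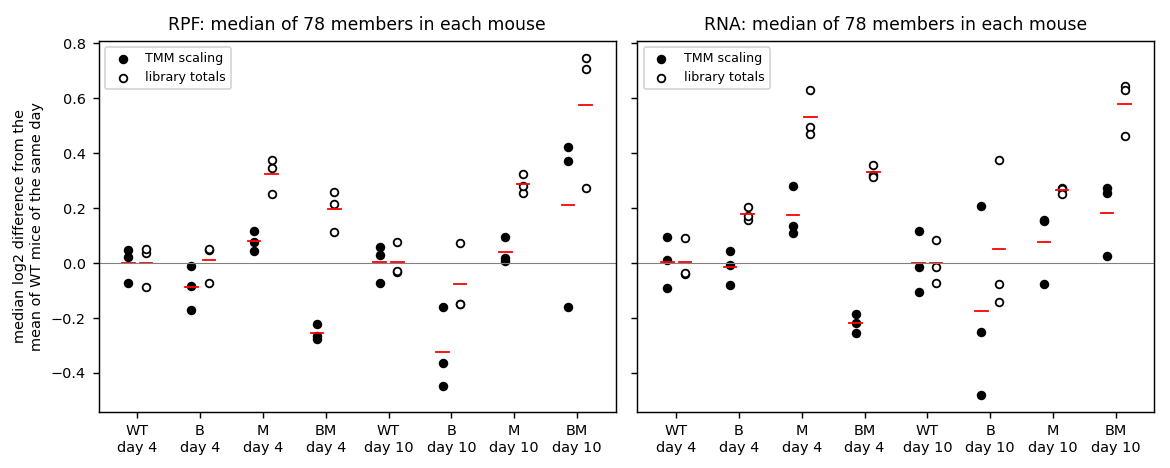
Median log2 level of the 78 members in each mouse relative to the mean of the WT mice of the same day, for RPFs (left) and RNA (right); filled points use TMM scaling, open points library totals, and red bars are group means (n = 3). In RPFs the BM mice of day 4 lie below WT with TMM scaling (−0.22 to −0.28) and above it with library totals (0.11 to 0.26), and at day 10 BM mouse 1 (−0.16, TMM) lies apart from mice 2 and 3 (0.37 and 0.42).

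In M livers at day 4, more members rose than fell in both library types. Of 79 members tested, 29 rose and 3 fell in RPFs (adjusted p under 0.1, edgeR's quasi-likelihood F test), against 18.5% of all genes up and 14.7% down, and the median change of the members was 0.12. The rises covered 3 of 4 complex II, 5 of 8 complex III, 7 of 18 complex V and 13 of 36 complex I members tested, but 1 of 12 of complex IV, *Cox4i1* (0.21 ± 0.07 SE). *Ndufs1*, the largest iron-sulphur subunit of complex I, was at 282, 328 and 295 CPM in the WT mice and at 439.9, 416 and 453 in M. Its change of 0.57 ± 0.08 corresponded to 1.48-fold (adjusted p = 0.000812). *Uqcrc1*, a core subunit of complex III, was at 462, 495 and 471 CPM in WT and at 644, 634 and 651 in M (0.47 ± 0.07, adjusted p = 0.000926). For both genes the M mice stood above all WT mice. Members with the largest changes were named, here and below, only if the mice did not overlap, so this is no separate support. *Sdhb*, the iron-sulphur subunit of complex II, rose by 0.38 ± 0.07 (adjusted p = 0.00415). The members that fell were accessory subunits, *Ndufa3* of complex I (−0.27 ± 0.08), *Uqcrq* of complex III (−0.25 ± 0.09) and *Atp5me* of complex V (−0.24 ± 0.07), and with library totals none of these 3 was called lower.

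In the RNA of the same M livers, 26 of 78 members rose and 1 fell, with 13.5% of all genes up and 10.3% down and a median change of the members of 0.21. After *Atp5if1*, the largest rises were those of *Atp5mc2*, which encodes a precursor of subunit c of the ATP synthase (0.79 ± 0.15), and *Uqcr11* (0.65 ± 0.09, adjusted p = 0.00034). *Uqcr11* RNA was at 100.2, 104 and 86.9 CPM in WT and at 158, 149.6 and 148 in M. *Ndufa1* was called lower (−0.26 ± 0.10), but on library totals its change was 0.10. *Atp5mc1*, *Atp5mc2* and *Atp5mc3* encode the same mature protein. Any reads that they share would make their split uncertain, which was not measured. On library totals 52 members rose in RPFs and 70 in RNA, and none fell, where 38.17% of all genes rose and 6.13% fell in RPFs and 50.7% rose and 2.6% fell in RNA. Zone 1 markers summed to 4768 to 5019 RPF CPM in M at day 4 against 6089 to 8041 in WT, and to 2776 to 4357 at day 10 against 4692 to 5088. At day 4 markers of blood (172 to 283, WT 358 to 373), endothelial (469 to 571, WT 619 to 699), stellate (539 to 636, WT 691 to 736) and cholangiocyte cells (43.8 to 62.8, WT 85.7 to 133) also summed lower. Kupffer markers were at 451, 982 and 332 in the M mice (WT 527 to 613). The part of these markers in the changes of M was not tested. Removing M mouse 1 or mouse 3 left 14 or 19 RPF calls, and removing WT mouse 1 or mouse 3 left 17 or 21. RNA calls numbered 9 on removing M mouse 1 and 16 or 12 on removing WT mouse 1 or mouse 3. Where a removal is given without a share of all genes, here and below, that share is not available. A general shift in calls then cannot be told apart from one of the members.

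At day 10 fewer members passed the test in M. In RPFs 5 rose and 3 fell of 79 (all genes 10.6% up and 8.8% down; median of the members 0.04), and in RNA 5 rose and 2 fell of 78 (all genes 8.53% and 7.12%; median 0.09). *Ndufs1* was at 321, 301 and 309.7 CPM in WT and at 451, 465 and 352 in M (0.45 ± 0.13, adjusted p = 0.0626). *Uqcrc1* was at 482, 421 and 451 CPM in WT and at 624, 621 and 557 in M (0.41 ± 0.11, adjusted p = 0.0511). The M mice lay above the WT mice for both genes. *Ndufa3* (−0.42 ± 0.12) and *Uqcrq* (−0.35 ± 0.10) fell at this day too, with *Ndufa6* of complex I (−0.28 ± 0.10), although on library totals 40 members rose and none fell (all genes 30.5% up and 3.35% down). In RNA *Ndufa10*, an accessory subunit of complex I, rose by 0.49 ± 0.11 and *Uqcr11* by 0.47 ± 0.13, whereas *Ndufa11* (−0.41 ± 0.14) and *Cox7a2* (−0.31 ± 0.11) fell. On library totals 28 members rose in RNA and none fell (all genes 16.9% up and 2.84% down). A single RPF call was left when WT mouse 3, M mouse 1 or M mouse 2 was removed. Removing WT mouse 1 left 3, WT mouse 2 left 4, and removing M mouse 3 gave 16. The RNA calls numbered 2 without WT mouse 3 or M mouse 1 and 3 without WT mouse 2.

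In B livers few members were called at day 4, and many had lower footprint levels at day 10. At day 4, 5 of 79 members fell in RPFs and none rose (all genes 6.21% up and 6.26% down; median of the members −0.11). They were *Ndufb3* (−0.34 ± 0.09) and *Ndufa13* (−0.26 ± 0.08) of complex I, *Cox7c* (−0.30 ± 0.08) of complex IV, *Cox7a2l* (−0.33 ± 0.11), placed in complex IV by its symbol only, and *Atp5me* (−0.32 ± 0.08). Zone 1 markers summed to 2991 to 4793 CPM in B and 6089 to 8041 in WT, and zone 3 markers to 14181 to 17087 and 6624 to 7257. On library totals 2 members rose and none fell (all genes 11.4% up and 3.8% down). In RNA edgeR called none of 78 (all genes 4.41% up and 3.73% down), 2 had an unadjusted p under 0.05 and DESeq2 also called none. With *Cox6b2* left out, removing B mouse 2 left no RPF call, and removing WT mouse 1, 2 or 3 left 1, 2 or 3. In RNA 1 call appeared without WT mouse 2.

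At day 10, 45 of 79 members fell in RPFs and 1, *Atp5if1*, rose, with 13.1% of all genes up and 12.1% down. The median change of the members was −0.35, and the fall reached every complex: 17 of 36 members tested in complex I, 4 of 4 in II, 7 of 8 in III, 7 of 12 in IV, *Ndufa4*, and 9 of 18 in V. *Cox6c*, a small subunit of complex IV, was at 160.1, 165 and 187 CPM in the WT mice and at 117, 107 and 108 in B (−0.64 ± 0.11, adjusted p = 0.00442). *Sdhd*, a membrane anchor of complex II, was at 223, 159 and 182 CPM in WT and at 128, 122 and 126 in B (−0.60 ± 0.14, adjusted p = 0.0166). *Uqcr11* was at 96.8, 83.6 and 90.9 CPM in WT and at 66.6, 56.0 and 57.0 in B (−0.61 ± 0.11, adjusted p = 0.00666). The B mice lay below the WT mice for all 3 genes. In the same RPF libraries the 5 zone 1 markers summed to 652 to 1133 CPM in B against 4692 to 5088 in WT, the 5 zone 3 markers to 11666 to 17792 against 5125 to 9219 and the 5 blood markers to 524 to 794 against 360.1 to 427, and their part in the fall was not tested. On library totals the members' median was −0.09 where that of all genes was 0.27, with 3 members up and 6 down (all genes 33.9% up and 5.12% down), and none of the 45 called lower was called higher. RPF calls fell to 16 and 26 on removing WT mouse 3 and mouse 1, and to 17 and 25 on removing B mouse 2 and mouse 3.

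RNA in B at day 10 gave 1 rise, *Atp5if1*, and no fall among 78 members (all genes 8.14% up and 7.48% down; median of the members −0.15). The B mice differed among themselves, with a median RNA level of the members of 0.21 in mouse 1, −0.25 in mouse 2 and −0.48 in mouse 3 relative to WT. Without B mouse 1, 25 members fell and none rose, with a median change of −0.35 (all genes 7.07% up and 7.03% down). RNA calls numbered 0 without WT mouse 1, WT mouse 3 or B mouse 2 and 3, all up, without B mouse 3. The RPF to RNA ratio of the members moved the other way across these mice, with medians of −0.37, −0.14 and 0.04.

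With both alleles, most members called at day 4 were lower than in WT on the TMM scale. In RPFs 45 of 80 members fell and 3 rose (all genes 26.2% up and 24.7% down; median of the members −0.21), and in RNA 40 of 79 fell and 4 rose (all genes 21.3% and 20.6%; median −0.22). These rises include *Cox6b2*, which passed the count filter through its BM libraries alone, so that its call is no evidence and is described by its counts further on. Without it 2 of 79 members rose in RPFs and 3 of 78 in RNA. This direction depends on the scaling: on library totals 41 members rose and 2 fell in RPFs (all genes 59.5% up and 8.7% down), and 60 rose and none fell in RNA (all genes 67.2% and 5.48%). In RPFs 31 of the 45 called lower were then higher than in WT, 8 of them past the threshold, and in RNA 34 of the 40, 23 of them past it. The members' median on library totals was 0.21 in RPFs and 0.33 in RNA, below the 0.42 and 0.54 of all genes. The zone 1 markers summed to 687 to 938 RPF CPM in BM at day 4 and the zone 3 markers to 12344 to 15947, against 6089 to 8041 and 6624 to 7257 in WT. Markers of Kupffer (310 to 325, WT 527 to 613), endothelial (496 to 557, WT 619 to 699), stellate (438 to 546, WT 691 to 736) and blood cells (169 to 238, WT 358 to 373) summed lower. So did those of cholangiocytes (36.1 to 53.9, WT 85.7 to 133). The part of these cell markers in this result was not tested. By complex, RPFs fell for 21 of 36 members tested in complex I, 2 of 4 in II, 3 of 8 in III, 9 of 13 in IV, *Ndufa4*, and 9 of 18 in V.

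*Ndufv3*, a small accessory subunit of the NADH-binding module of complex I, was at 77.97, 90.2 and 69.6 RPF CPM in the WT mice and at 46.9, 44.5 and 48.6 in BM at day 4 (−0.74 ± 0.10, adjusted p = 0.00014). *Ndufa13*, another accessory subunit, was at 183, 175 and 172 CPM in WT and at 109.7, 109 and 114 in BM (−0.64 ± 0.07, adjusted p = 3.81e-05). *Ndufa4* was at 418, 439.8 and 413 CPM in WT and at 291, 287 and 294 in BM (−0.52 ± 0.07, adjusted p = 0.000182). For these 3 genes no BM mouse reached a WT mouse. Beside *Cox6b2*, the members called higher were *Atp5if1* and *Ndufs1*, the second at 386, 387 and 371 CPM in BM (0.36 ± 0.08, adjusted p = 0.00403). In RNA the largest falls were those of *Ndufa3* (−0.70 ± 0.12), *Ndufa11* (−0.69 ± 0.15) and *Ndufa1* (−0.68 ± 0.11). Leaving out each mouse in turn gave 38 to 48 members called in RPFs and 30 to 42 in RNA, *Cox6b2* left out.

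The core subunits carry out electron transfer and ATP synthesis, and accessory subunits surround them. Subunits of both kinds are followed here. In M at day 4 the RPFs of *Ndufs3* (0.25 ± 0.07) and *Ndufv2* (0.36 ± 0.09), which hold or surround the redox centres of complex I, rose with *Ndufs1*. *Ndufv1*, which binds NADH, had a change of 0.18 ± 0.07 that did not pass. *Sdha* rose by 0.24 ± 0.08, *Uqcrc2*, the second core protein of complex III, by 0.36 ± 0.07, and *Uqcrfs1*, its iron-sulphur protein, by 0.21 ± 0.07. *Atp5f1b*, the catalytic β subunit of the ATP synthase, was at 1512, 1502 and 1560.0 CPM in WT and at 1901, 1793 and 1929 in M (0.33 ± 0.07), with no overlap, and *Atp5f1c*, its γ subunit, rose by 0.38 ± 0.08. In BM at day 4, by edgeR, none of *Ndufs3*, *Ndufv2*, *Sdha*, *Uqcrc2*, *Uqcrfs1*, *Atp5f1b* and *Atp5f1c* was called in RPFs, with changes between −0.13 and 0.14. In the same livers *Ndufv1* (−0.21 ± 0.08), *Sdhc* (−0.28 ± 0.08) and the complex IV subunits *Cox5a* (−0.27 ± 0.08), *Cox6a1* (−0.36 ± 0.10), *Cox7a2* (−0.41 ± 0.09) and *Cox8a* (−0.38 ± 0.08) fell, but on library totals all 6 were above WT (changes between 0.0191 and 0.21). In B at day 10, *Uqcrc2* (−0.34 ± 0.10), *Uqcrfs1* (−0.33 ± 0.11), *Cox4i1* (−0.42 ± 0.13), *Cox8a* (−0.49 ± 0.12) and *Atp5f1c* (−0.37 ± 0.12) fell, whereas *Ndufv2* had a change of −0.03 ± 0.11 and *Atp5f1b* of −0.22 ± 0.12.

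Against M livers of the same day, which carry the transgene too, most members were lower in BM at day 4 on the TMM scale. In RPFs 71 of 80 fell and, leaving out *Cox6b2*, which again was tested through its BM libraries alone, 1 rose, *Atp5if1* (all genes 18.8% up and 19.3% down; median of the members −0.35). In RNA 64 of 79 fell and, leaving out *Cox6b2* for the same reason, *Atp5if1* rose (all genes 14.6% and 15.9%; median −0.35). All 4 complex II members and 33 of 36 tested in complex I were among the RPF falls, as were 7 of 8 in complex III, 10 of 13 in IV and 16 of 18 in V. *Sdhb* was at 511, 475 and 468 RPF CPM in M and at 316, 335 and 328 in BM (−0.59 ± 0.07, adjusted p = 0.000407), with no overlap. *Ndufb9* of complex I fell by 0.56 on the log2 scale in RPFs. In RNA *Ndufb10* of complex I (−0.68 ± 0.14), *Atp5f1d*, the δ subunit of the ATP synthase (−0.68 ± 0.11), and *Atp5me* (−0.66 ± 0.11) fell most. On library totals 20 members fell and 2 rose in RPFs, *Cox6b2* included (all genes 9.33% down and 39% up), with a median of −0.13 where that of all genes was 0.21, and 5 of the 71 were then higher in BM.

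In BM at day 10 the shares of members that rose or fell in RPFs were below those of all genes. Leaving out *Cox6b2*, 12 of 79 members rose and 6 fell in RPFs (all genes 24.5% up and 22.3% down; median of the members 0.20), and in RNA 24 of 78 rose and 11 fell (all genes 22.9% and 22.8%; median 0.18). *Uqcr10*, a small subunit of complex III, was at 69.7, 77.4 and 75.5 RPF CPM in WT and at 87.0, 148 and 156 in BM (0.80 ± 0.23, adjusted p = 0.0288). *Ndufs1* was at 379.9, 561 and 624 CPM in BM (0.74 ± 0.21, adjusted p = 0.0282). *Ndufa3* was at 60.0, 52.7 and 65.3 CPM in WT and at 42.4, 33.8 and 33.3 in BM (−0.71 ± 0.16, adjusted p = 0.0122). *Ndufv3* was at 81.5, 81.4 and 94.9 CPM in WT and at 54.0, 59.5 and 52.1 in BM (−0.65 ± 0.14, adjusted p = 0.0106). The groups did not overlap for these 4 genes, which naming by largest change required, and for the first pair mouse 1 lay nearest to WT. Without mouse 1 their changes were 1.03 ± 0.11, 0.92 ± 0.12, −0.83 ± 0.13 and −0.63 ± 0.13. *Cox7a1*, at 11 to 17 counts a BM library, was called lower as well (−0.87 ± 0.30). The 5 blood markers summed to 209, 606 and 789 RPF CPM in BM mice 1, 2 and 3 against 360.1 to 427 in WT, the 5 Kupffer cell markers to 653 to 720.3 against 406 to 584 and the 5 zone 3 markers to 8323 to 14261 against 5125 to 9219, and their part in these results was not tested.

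In RNA of BM at day 10, 8 of 11 complex IV members tested rose and none fell (9 without mouse 1), among them *Cox5b* (0.70 ± 0.15) and *Cox6b1* (0.62 ± 0.13). In complex I, 10 of 36 rose and 8 fell, near the shares of all genes. Without mouse 1 these counts were 13 and 8 (all genes 27.8% up and 29.2% down). *Atp5mc3*, another subunit c gene (0.75 ± 0.17), and *Ndufa10* (0.75 ± 0.13) had the largest rises after *Atp5if1*. *Ndufa13* (−0.53 ± 0.14), *Ndufa1* (−0.52 ± 0.16), *Uqcrq* (−0.51 ± 0.13) and *Sdha*, the flavoprotein of complex II (−0.46 ± 0.15), fell, but on library totals 53 members rose in RPFs and 59 in RNA and none fell, where 43.3% of all genes rose and 10.9% fell in RPFs and 47.6% rose and 11.4% fell in RNA.

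These counts depend on single mice. Without BM mouse 1, and with *Cox6b2* left out as before, 50 of 79 members rose and 10 fell in RPFs (all genes 33.4% up and 32.9% down) and 36 rose and 11 fell in RNA (all genes 27.8% and 29.2%). RPF calls numbered 5 without WT mouse 3, 6 without WT mouse 1 or BM mouse 3, and 7 without WT mouse 2 or BM mouse 2. RNA calls numbered 21 without WT mouse 2, WT mouse 3 or BM mouse 2 and 23 without WT mouse 1 or BM mouse 3. Against M at day 10, leaving out *Cox6b2*, 2 of 79 members rose in BM in RPFs, *Atp5if1* and *Ndufa7* (0.45 ± 0.16), and *Ndufv3* fell (−0.46 ± 0.14), with 16% of all genes up and 16.7% down. In RNA 16 of 78 rose and 2 fell (all genes 16.3% and 16.6%), with *Cox6a1* (0.61 ± 0.13) and *Atp5mj* (0.55 ± 0.17) among the rises and *Sdha* (−0.49 ± 0.14) and *Ndufa13* (−0.38 ± 0.15) as the falls. Without BM mouse 1 the RPF counts against M became 50 up and 2 down (all genes 30.5% and 28.6%), and they became 1 up when any other mouse of this comparison was left out. The RNA calls against M numbered 23 up and 3 down without BM mouse 1. They numbered 2 without BM mouse 2, 4 without BM mouse 3 or M mouse 2, 5 without M mouse 1 and 7 without M mouse 3.

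**Figure D3:**
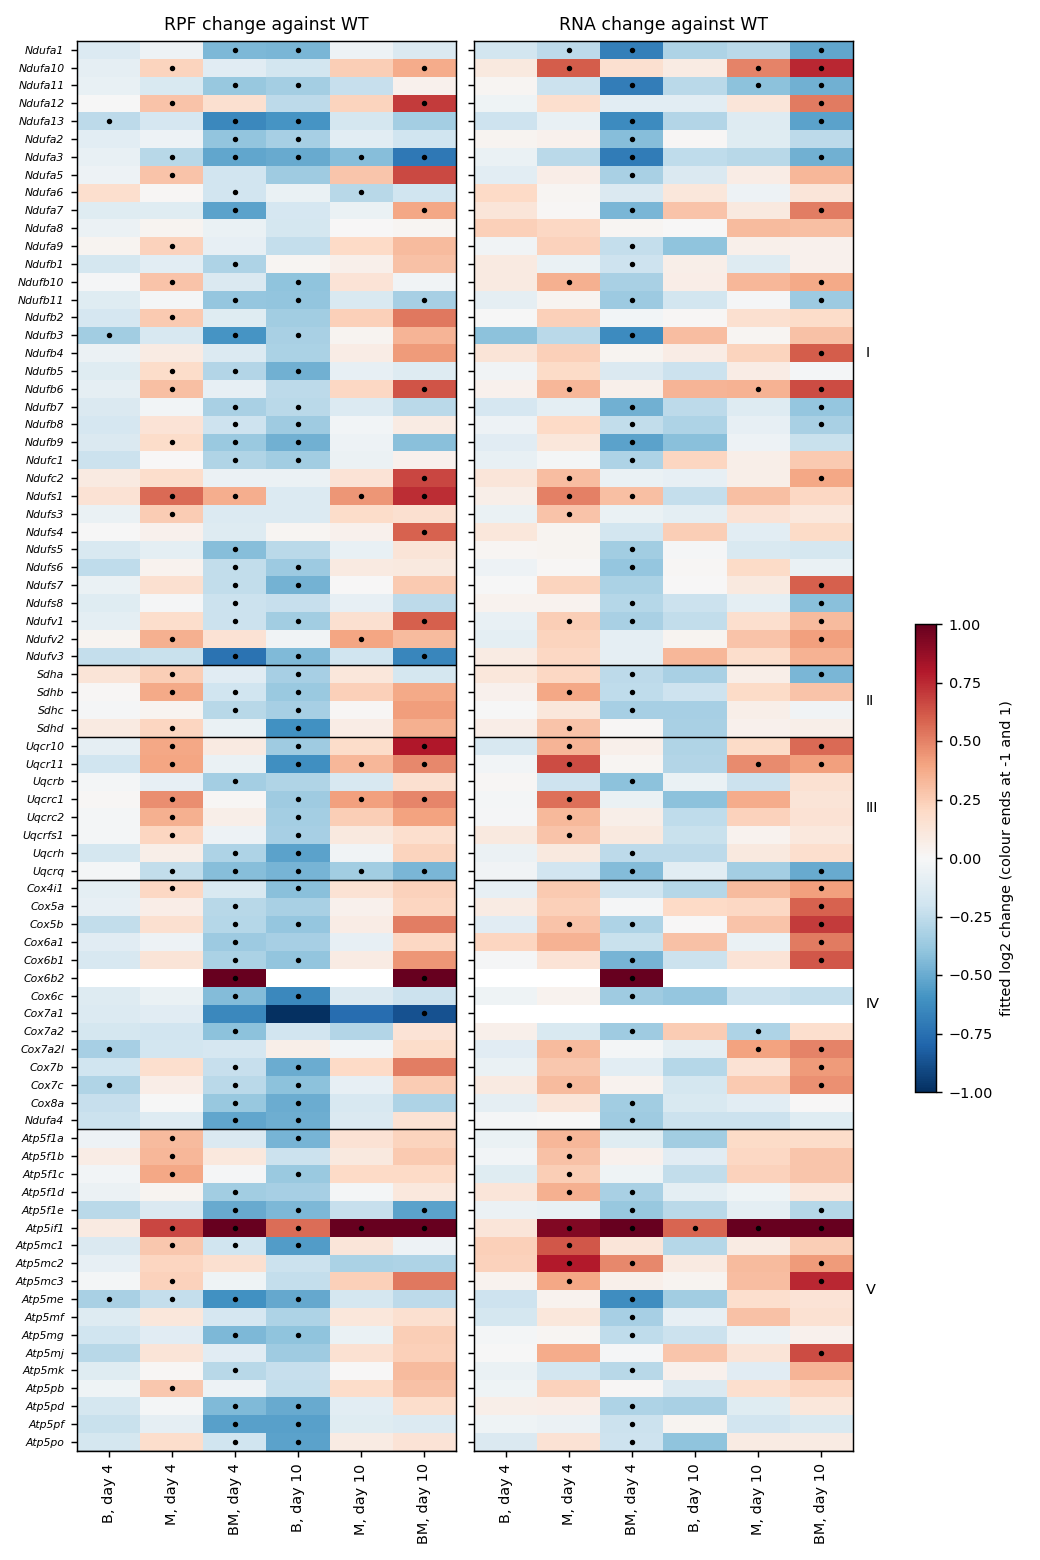
Fitted log2 change against WT on the TMM scale of the members tested, 1 of them left out (rows, by complex) in RPFs (left) and RNA (right) for B, M and BM at day 4 and day 10 (columns); colours end at −1 and 1, dots mark adjusted p under 0.1 and blank cells were not tested. Dots on blue cells fill the RPF columns of BM at day 4 (45 members) and B at day 10 (45 members), while *Atp5if1* is called higher in all of these RPF comparisons except B at day 4.

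The change against WT was compared between the days by a direct test. In B, 8 of 80 members had a lower RPF change at day 10 than at day 4 and 1 a higher one. The share lower is near the 8.8% of all genes and the share higher is below their 8.39%, and the median of the members was −0.26. *Sdhd* (−0.69 ± 0.15), *Cox6c* (−0.51 ± 0.15) and *Sdha* (−0.46 ± 0.14) were among those called lower, and *Atp5if1* was called higher (0.47 ± 0.14). On library totals 1 member was called higher and 1 lower (all genes 13.4% up and 5.17% down). In RNA of B none of 78 was called (all genes 4.3% up and 5.02% down), with 2 at an unadjusted p under 0.05 and none by DESeq2. In M none was called in either library type (1.18% of all genes in RPFs and 1.2% in RNA, either direction), with 2 and 3 members at an unadjusted p under 0.05 and 1 and 0 called by DESeq2.

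In BM, 28 of 80 members had a higher RPF change at day 10 and none a lower one (all genes 17.2% up and 18.6% down; median of the members 0.39), and in RNA 32 of 79 were higher and none lower (all genes 13.4% and 16.6%; median 0.32). The RPF levels of *Ndufa7*, a complex I subunit with an E-box before its start site, were 104, 90.7 and 79.6 CPM in WT and 65.4, 57.9 and 63.2 in BM at day 4. At day 10 they were 83.1, 68.9 and 82.1 CPM in WT and 89.0, 115 and 105 in BM, so that BM lay below WT on day 4 and above it on day 10. The difference of the changes was 0.93 ± 0.19 (adjusted p = 0.00438). *Ndufb3* was at 65.6, 57.0 and 63.7 CPM in BM at day 4 and at 67.1, 128 and 120.0 at day 10 (0.94 ± 0.27), with mouse 1 again at the level of day 4. In RNA *Cox6b1* (1.08 ± 0.23) and *Cox5b* (1.00 ± 0.19) had the largest differences after *Atp5if1*. On library totals 20 members in RPFs and 18 in RNA were called higher at day 10, and none lower (all genes 14.4% up and 18.6% down in RPFs, 8.66% and 21.2% in RNA).

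Leaving out BM mouse 1 of day 10 gave 58 of 79 members with a higher and 2 with a lower RPF change, *Cox6b2* left out (all genes 25.8% and 31.5%). In RNA it gave 45 of 78 members with a higher change and none with a lower one. RPF calls numbered 5 without BM mouse 2 or 3 of day 10, 6, 8 and 14 without BM mouse 3, 2 and 1 of day 4, 10 and 9 without WT mouse 1 and 2 of day 4, and 15 and 8 without WT mouse 1 and 2 of day 10. For B, RPF calls numbered 19 without B mouse 1 of day 10, 15 without WT mouse 2 of day 10 and 1 to 5 when any of 8 other mice was left out. In RNA of B, 5 members were called without B mouse 1 of day 10 and 1 without B mouse 3 or WT mouse 2 of day 10. In M, 1 was called in RPFs without M mouse 2 of either day, 2 without M mouse 3 of day 10 and 1 in RNA without WT mouse 2 of day 4.

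*Atp5if1* (chr4:132257215-132262823 on GRCm39, minus strand) had the largest RPF change in M and in BM at both days among members that reached 10 counts in all libraries. Its product binds the catalytic head of the ATP synthase and inhibits ATP hydrolysis when the proton gradient is lost. RPF levels at day 4 were 23.5, 20.5 and 24.4 CPM in WT, 25.9, 25.0 and 23.0 in B, 31.6, 42.1 and 32.5 in M and 63.4, 59.8 and 57.1 in BM. At day 10 they were 26.2, 26.0 and 24.2 CPM in WT, 36.4, 37.6 and 39.7 in B, 63.9, 54.2 and 76.0 in M and 126, 210.2 and 223 in BM. B and WT mice overlapped at day 4, and at every other step of the order WT, B, M, BM within a day the groups stood apart. The RPF change against WT was 0.67 ± 0.13 in M and 1.42 ± 0.10 in BM at day 4. At day 10 B changed by 0.56 ± 0.10, M by 1.34 ± 0.13 and BM by 2.86 ± 0.24, the last a 7.26-fold difference (adjusted p = 0.000248). Against M, BM was higher by 0.74 ± 0.11 at day 4 and 1.52 ± 0.25 at day 10.

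RNA of *Atp5if1* moved alike. It was at 8.91, 12.1 and 10.1 CPM in WT at day 4 and at 84.3, 83.5 and 103 CPM in BM at day 10. Changes against WT were 0.93 ± 0.18 in M and 1.55 ± 0.15 in BM at day 4. At day 10 B changed by 0.58 ± 0.20, M by 1.11 ± 0.19 and BM by 2.98 ± 0.16 (adjusted p = 9.13e-06). The RPF change in BM was larger at day 10 than at day 4 by 1.45 ± 0.26 and the RNA change by 1.42 ± 0.22. In no comparison was the RPF to RNA ratio called changed, and in BM at day 10 its change was −0.14 ± 0.29. Under the alternatives tried, library totals and the removal of each mouse included, the RPF change in BM at day 10 lay between 2.71 and 3.22.

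**Figure D4:**
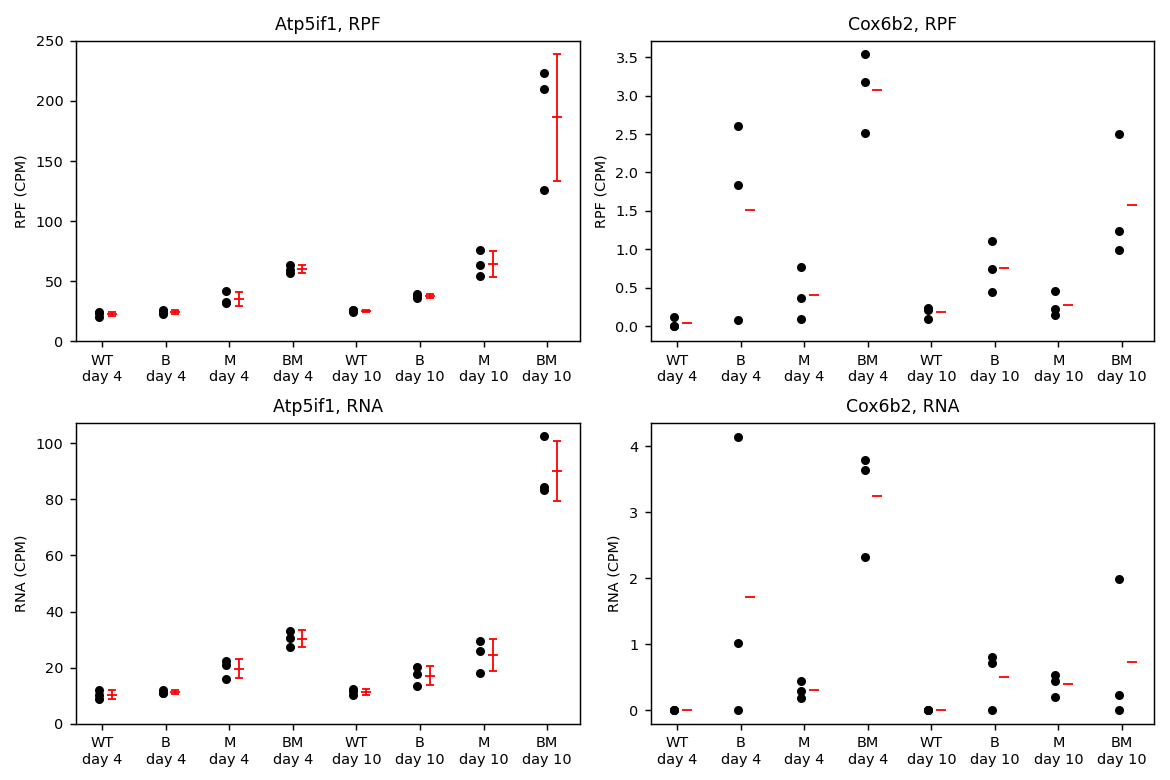
RPF (top) and RNA (bottom) levels in CPM of *Atp5if1* (left) and *Cox6b2* (right) by genotype and day; black points are mice, red dashes are means and red bars, for *Atp5if1* only, are SDs (n = 3). *Atp5if1* RPFs reach 126 to 223 in BM at day 10 against 24.2 to 26.2 in WT, and *Cox6b2* is near 0 in WT with its highest mean in BM at day 4.

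*Cox6b2* (chr7:4754789-4756093 on GRCm39, minus strand), the testis form of complex IV subunit VIb, was almost absent from WT livers, with 0, 1 and 0 RPF counts at day 4 and 1, 2 and 2 at day 10. At day 4 its RPF counts were 20, 28 and 1 (B), 1, 10 and 4 (M) and 52, 54 and 38 (BM). At day 10 they were 10, 6 and 16 (B), 3, 2 and 6 (M) and 43, 16 and 12 (BM). Groups with mutant β-catenin held most of the counts, although B mouse 3 of day 4 had no more than a WT mouse. Over summed counts, BM exceeded WT 86.1-fold at day 4 (95% counting interval 15.2 to 3426) and 9.93-fold at day 10 (4.06 to 31.5), and B exceeded WT 41.1-fold (7.04 to 1655) and 4.54-fold (1.76 to 14.9). For M the ratios were 11.8 (1.82 to 498) and 1.61 (0.516 to 5.92), and all ratios of day 4 rest on 1 WT count. RNA counts were 0 in all WT mice. At day 4 they were 5, 20 and 0 (B), 1, 2 and 2 (M) and 24, 21 and 13 (BM), and at day 10 they were 4, 0 and 4 (B), 2, 1 and 3 (M) and 10, 1 and 0 (BM), when M mice lay within the range of the others. These intervals cover counting error and not the spread between mice. At its highest *Cox6b2* remained far below *Cox6b1*, the form of other tissues, which was at 208, 182 and 204 RPF CPM in BM at day 4.

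Among the other tissue-specific paralogues, *Cox7a1* had 5 to 21 RPF counts per library. Those that stayed near the detection limit were *Cox4i2*, *Cox6a2*, *Cox8b* and *Ndufa4l2*. *Cox4i2* had 0 to 2 RPF counts per library, *Cox6a2* 0 to 3, *Cox8b* 0 to 1 and *Ndufa4l2* 2 to 11, and their RNA counts were at most 1, or 3 for *Ndufa4l2*. Markers of muscle in RPFs summed to at most 0.22 CPM and those of brown fat to at most 0.23 CPM, with 2 of 5 and 1 of 2 markers in the RPF table. In RNA, where all 5 muscle markers were measured, they summed to 2.90 to 7.80 CPM, most of it *Actn2* (group means of 3.68 to 6.04), and the 2 brown fat markers to at most 0.20 CPM.

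Translational efficiency (TE), the RPF change not matched by an RNA change, was tested by whether the group difference depended on the library type. The study's comparison addresses whether mRNA translation changed beyond mRNA level. No member was called in any of the 11 comparisons by edgeR. Of all genes, 0.0488% (B), 0.971% (M) and 2.23% (BM) were called at day 4, 0.0564%, 0.0% and 0.259% at day 10, 0.0943% and 0.132% for BM against M at day 4 and day 10, and 0.0%, 0.0% and 0.31% for the day differences of B, M and BM. An unadjusted p under 0.05 was found for 1 (B), 6 (M) and 3 (BM) members at day 4, 8, 0 and 2 at day 10, 3 and 1 for BM against M, and none for the day differences. The median SE of the members' TE changes was 0.12 to 0.14 in the comparisons of day 4 and 0.17 to 0.26 in those of day 10, which limits the size of change that could be called. The median TE change of the members was −0.21 in B at day 10 and within 0.09 of 0 in the other comparisons against WT, and DESeq2 called 1 member, *Ndufv3* in BM at day 10.

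Because both libraries came from the same mouse, TE was also fitted with the mouse as a block, and some members were then called, all lower. They were *Cox7a2l*, *Ndufa10* and *Atp5mc2* in M at day 4, *Cox7c*, *Atp5pf* and *Ndufv3* in BM at day 4, 6 members in B at day 10 (*Cox5a*, *Atp5pf*, *Ndufv3*, *Ndufb3*, *Ndufc1* and *Ndufb6*), *Ndufv3* in BM at day 10 and *Atp5pf* for BM against M at day 4. In this fit 0.903% of all genes were called lower and 1.75% higher in M at day 4, 2.39% and 3.77% in BM at day 4, 1.28% and 1.32% in B at day 10, 2.83% and 2.38% in BM at day 10 and 0.754% and 1.37% for BM against M at day 4. The log2 RPF to RNA ratio of *Ndufv3*, with 0.5 CPM added to each level, was 2.46, 2.42 and 2.28 in the WT mice of day 4 and 1.75, 1.35 and 2.11 in BM. At day 10 it was 2.79, 2.47 and 3.18 in WT, 1.79, 2.33 and 2.14 in B and 1.73, 1.76 and 1.99 in BM, with neither mutant group overlapping WT. Without the block its TE change was −0.66 ± 0.20 in BM at day 4, −0.77 ± 0.29 in B and −1.02 ± 0.23 in BM at day 10 (adjusted p = 0.163, 0.884 and 0.164). Its RNA counts were low, 41 to 133 per library. Without BM mouse 1, the TE test called 14 members in BM against WT at day 10, 9 higher and 5 lower (all genes 10.4% and 11.1%), and 3 against M (all genes 6.32% and 7.21%). TE calls numbered 1 in M at day 4 without WT mouse 2, 2 in M at day 10 without M mouse 3 and 8 for the day difference of BM without BM mouse 1 of day 10 (all genes 5.34% higher and 7.81% lower).

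**Figure D5:**
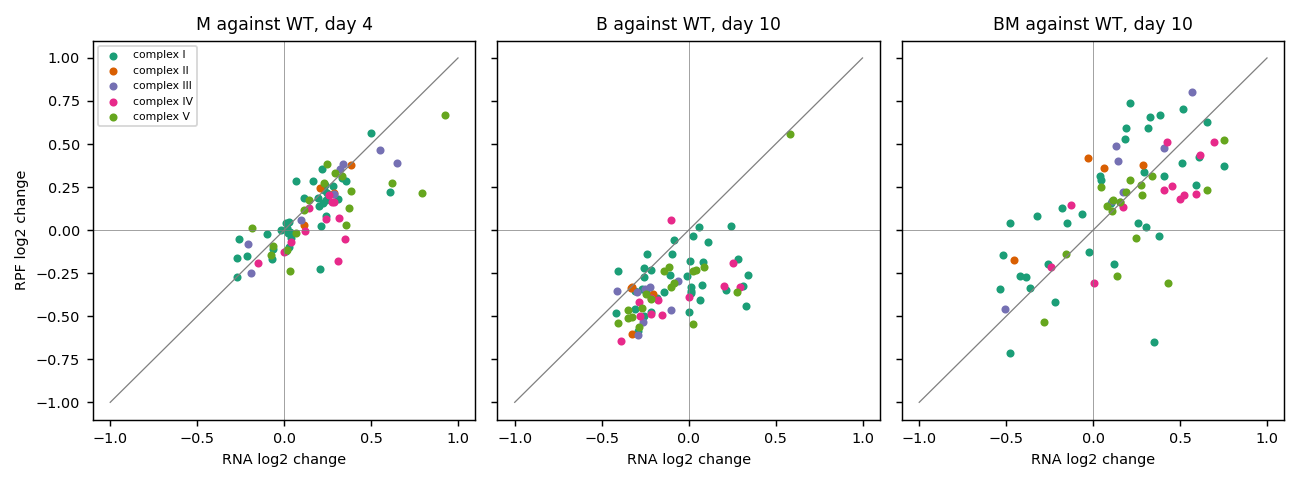
RPF change against RNA change (log2, TMM scale) of each tested member with changes under 1.1 in size, coloured by complex, for M at day 4, B at day 10 and BM at day 10 against WT; the diagonal marks equal changes. In B at day 10 most points lie below the diagonal (median TE change −0.21), and in M at day 4 they lie nearer to it (−0.05).

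Other genes of mitochondrial respiration were taken from lists, and their counts stand beside the RPF shares of all genes called, 18.5% up and 14.7% down in M at day 4, 26.2% and 24.7% in BM at day 4, 13.1% and 12.1% in B at day 10 and 24.5% and 22.3% in BM at day 10. Without BM mouse 1 of day 10 the last shares were 33.4% and 32.9%. All list values are RPF changes on the TMM scale, and library totals were not run for the lists. For the citric acid cycle, 13 of 16 genes rose and none fell in RPFs of M at day 4 (median 0.29), 7 rose and 2 fell in BM at day 4 (0.12), 3 rose and 2 fell in B at day 10 (0.00) and 9 rose and none fell in BM at day 10 (0.77), or 13 rose without its mouse 1. The largest changes were those of *Idh3a*, the catalytic subunit of NAD-dependent isocitrate dehydrogenase, 1.66 in B and 2.64 in BM at day 10 (2.87 without mouse 1). For coenzyme Q synthesis, 8 of 13 rose and 1 fell in M and in BM at day 4 (medians 0.34 and 0.29), 2 rose and 2 fell in B at day 10 and 6 rose and 1 fell in BM at day 10 (0.41; 8 and 2 without mouse 1), with *Pdss1*, which makes the isoprenoid tail, up by 1.49 in BM at day 4 and 2.59 at day 10.

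Among assembly factors of the complexes, which help to build them without staying in them, 14 of 57 rose and 3 fell in M at day 4 (median 0.20), 17 of 58 rose and 8 fell in BM at day 4 (0.12), 2 rose and 5 fell in B at day 10 (−0.08) and 17 rose and 5 fell in BM at day 10 (0.16; 26 and 6 without mouse 1). In BM, 17 of 58 is near the share of all genes that rose at either day. Without mouse 1 of day 10, all genes gave 33.4% up and 32.9% down, here and for the lists below. In BM at day 4 the complex I factor *Acad9* rose by 0.81 and the copper chaperone *Sco1* by 0.55, while *Ndufaf3* had a change of −0.68. Of the 15 tested genes of other respiratory chain components and carriers, 8 rose and 2 fell in M at day 4 (median 0.26), 4 and 3 in BM at day 4 (0.10), 0 and 3 in B at day 10 (−0.11) and 5 and 1 in BM at day 10 (0.11; 8 and 2 without mouse 1). *Slc25a4*, the heart and muscle form of the ADP/ATP carrier, changed by 2.91 in BM at day 10. Of 19 tested regulators of mitochondrial biogenesis, 7 rose and 2 fell in M at day 4 (median 0.30), 9 and 1 in BM at day 4 (0.13), 2 and 4 in B at day 10 (−0.10) and 8 and 2 in BM at day 10 (0.23; 12 and 2 without mouse 1). *Ppargc1a*, a coactivator that drives respiratory gene expression, rose by 1.08 in M at day 4 and 3.67 in BM at day 10. At day 10 its RPF level was 9.27, 12.5 and 11.9 CPM in WT and 27.4, 173 and 232 in BM, so that mouse 1 lay far below the other two, and without it the change was 4.17.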

How the data were processed

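RPF and cytoplasmic RNA libraries of 24 mouse livers were analysed. Footprint reads were trimmed by the authors (Cutadapt 1.18), deduplicated by unique molecular identifiers (UMI-tools), cleared of rRNA and tRNA and aligned (BBmap) to filtered GENCODE vM27 transcripts on GRCm39. Keeping 1 transcript a gene, the most abundant, the authors deposited raw counts of coding sequences without the first 20 and last 10 codons. For RNA, the authors aligned with Bowtie2 2.3.5.1 and deposited RSEM 1.3.3 expected counts per isoform, which were summed per gene and rounded here, and TPM values. Tests used R 4.3.3 and edgeR 4.0.16 (quasi-likelihood F test, TMM, filterByExpr with a minimum count of 10), with p adjusted over all genes tested by Benjamini-Hochberg and a threshold of 0.1. Each fit held the groups compared only, and TE was the interaction with library type. An RPF transcript absent from a library was taken as 0. Alternatives were DESeq2 1.42.0, relative log expression factors, no count filter, a replicate block, leaving out each mouse, RNA of the RPF transcript only and, chosen after seeing the data, library totals, lists without mouse 1 of BM at day 10 and counts without *Cox6b2*.

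For TE the block is the mouse, since the labels give both libraries of a mouse: their deviations from the group means correlated between 0.201 and 0.612. Named members were chosen core and accessory subunits and paralogues, up to 3 members in each direction per comparison and readout with the largest change and no overlap of mice, those called in TE, and the highest level per codon. Lack of overlap in members named for the largest change thus followed from this rule. The values of 1 member are not reported here, and counts over members include it. Members named in addition, as small groups of calls or list examples, were chosen after their values were seen. Members, lists and tests were chosen with earlier results of these data known. Scripts were tested on simulated data. Symbols came from GENCODE vM39 (20614 of 20622 genes). Codons per gene were taken from GENCODE vM39 coding sequences in place of RefSeq proteins. Batches are not given in the sources used here.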

Additional observations from a re-analysis of the deposited data

Results flagged for a closer look

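The change against WT was compared between day 4 and day 10 by a direct test of the difference (edgeR, interaction of genotype and day, adjusted p under 0.1). In B, 9 of 80 members differed in RPFs, of which 8 were lower, near the 8.8% of all genes, and 1 higher, below their 8.39%. The count was 2 with library totals and 1 without WT mouse 3 of day 10. The 9 included *Atp5if1* (0.47), *Sdhd* (−0.69), *Cox6c* (−0.51) and *Sdha* (−0.46), as log2 change at day 10 minus that at day 4. In BM, 28 of 80 members differed in RPFs, all higher (all genes 17.2% higher and 18.6% lower), with *Atp5if1* (1.45), *Ndufb3* (0.94) and *Ndufa7* (0.93) among them. The count was 5 without BM mouse 2 or 3 of day 10. Without BM mouse 1 of day 10, *Cox6b2* left out, 58 were higher and 2 lower (all genes 25.8% and 31.5%). In RNA 32 of 79 differed, all higher (all genes 13.4% and 16.6%), with *Atp5if1* (1.42), *Cox6b1* (1.08) and *Cox5b* (1.00) the largest, and 45 without BM mouse 1 of day 10. The part of cell composition in these differences was not tested: the 5 zone 1 markers summed to 687 to 938 RPF CPM in BM at day 4 and to 691, 4109 and 4806 in the BM mice of day 10, and the 5 proliferation markers to 415 to 694 and 40.0 to 81.1. The largest part of the zone 1 sum in BM at day 10 was *Pck1* (mean 2706 CPM), while the means of *Hal*, *Gls2* and *Cyp2f2* were below WT.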

How the results depend on the processing

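Counts are of members called, *Cox6b2* included, and 3 mice a group limit their precision. Most settings below lack a share of all genes called. For these, a general shift in calls cannot be told apart from one of the members. With library totals, RPF counts were 2 in B and 52 in M at day 4, with 41 up and 2 down in BM at day 4, 9, 40 and 53 in B, M and BM at day 10, 22 and 11 for BM against M at day 4 and 10 and 2 for the day difference of B. RNA counts were 9 and 70 in B and M and 60, all up, in BM at day 4, 5, 28 and 59 in B, M and BM at day 10, 29 and 31 for BM against M and 18 for the day difference of BM, TE counts were 3 in M and 1 in BM at day 4, and the change of *Ndufa1* RNA in M at day 4 reversed to 0.10. Named members, core and accessory, called lower in BM against WT at day 4 reversed in RPFs to 0.15 (*Cox5a*), 0.23 (*Atp5mc1*), 0.22 (*Sdhb*), 0.0846 (*Uqcrb*), 0.0191 (*Cox7a2*), 0.0475 (*Cox8a*), 0.11 (*Cox6b1*), 0.21 (*Ndufv1*), 0.0643 (*Cox6a1*) and 0.15 (*Sdhc*), and in RNA to 0.30 (*Sdhb*), 0.14 (*Uqcrb*), 0.29 (*Sdha*), 0.19 (*Ndufa4*), 0.19 (*Cox7a2*), 0.20 (*Cox8a*), 0.0855 (*Cox6b1*), 0.22 (*Ndufv1*) and 0.21 (*Sdhc*). *Ndufs1* RPFs in BM against M at day 4 reversed to 0.0094. With DESeq2, counts were 18 and 1 for the RPF day differences of B and M, 15, 0, 3 and 5 for RNA of M at day 4, B and M at day 10 and BM against M at day 10, and 1 for TE of BM at day 10. Without the count filter RNA counts were 1 in B at day 4 and 8 for BM against M at day 10. Relative log expression factors gave 2 in RNA of B at day 10 and 1 in TE of M at day 4, and RNA of the RPF transcript gave 2 in B at day 10 and 1 for the day difference of B. The cause of these shifts was not tested.

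Replicate numbers did not pair mice of different groups: correlations of deviations lay between −0.244 and 0.273 and no comparison had all 3 above 0.1. The replicate block gave RPF counts of 3 in B at day 4, 2 in M at day 10 and 2 for BM against M at day 10, and RNA counts of 6 in B, 3 in M and 10 for BM against M at day 10. With the mouse as block, TE counts were 3 in M and 3 in BM at day 4, 6 in B and 1 in BM at day 10 and 1 for BM against M at day 4.

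Leaving out each mouse in turn, RPF counts ranged from 0 to 6 in B, 14 to 34 in M and 39 to 49 in BM at day 4, 16 to 51, 1 to 16 and 6 to 61 at day 10, 57 to 70 and 2 to 53 for BM against M, and 1 to 19, 0 to 2 and 5 to 61 for the day differences of B, M and BM. RNA counts ranged from 0 to 1, 9 to 29 and 31 to 43 at day 4, 0 to 25, 2 to 10 and 21 to 47 at day 10, 44 to 67 and 2 to 26 for BM against M, and 0 to 5, 0 to 1 and 23 to 45 for the day differences. TE counts ranged from 0 to 1 in M at day 4, 0 to 2 and 0 to 14 in M and BM at day 10, 0 to 3 for BM against M at day 10 and 0 to 8 for the day difference of BM, and were 0 in the others. A group left with 2 mice is assumed to vary like the other. Of 2810 values of 48 named members, 2209 kept direction and side of the threshold, 580 kept direction only and 21 reversed, all 21 with library totals.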
